A study of Homo sapiens with 6 samples.

Results

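The genes described here act in the DNA damage response and in recombination repair, and were chosen by name as a list of 43 human genes. A probe set belonged to the list where its gene symbol, or another symbol of the same Entrez gene, was a listed name. The array held 84 such probe sets for 42 of the 43 genes, out of 45033 probe sets and 23595 gene symbols in all. RNA of ATRIP, the partner protein of the kinase ATR, was not analysed here. RNA levels were measured in HEK293 cells on 6 single-colour NimbleGen arrays, 2 in each of 3 groups. The first group received an shRNA against SET8 and then Wnt3a conditioned medium. The second received a control shRNA and Wnt3a conditioned medium, and the third a control shRNA and control conditioned medium. In every group transfection lasted about 40 hours and medium exposure 7 hours, and all arrays carried Cy3-labelled material made from total RNA. The labels speak of both siRNA and shRNA for the same transfections. Cells with SET8 shRNA and control medium were not analysed here, so whether the knockdown alters the response to Wnt3a was not tested. No label states that the 2 arrays of a group came from separate cultures. The p-values therefore reflect array-to-array spread that may be only technical.

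HEK293 is a line of human embryonic kidney cells transformed with adenovirus DNA, whose early proteins bind p53 and the retinoblastoma protein. SET8, encoded by KMT5A and named SETD8 on the array, places a single methyl group on a particular lysine of the histone H4 tail, written H4K20. Loss of SET8 is known from work in other human cells to be followed by DNA damage and checkpoint signalling. Cells answer DNA breaks and stalled replication forks with the kinases ATM, ATR and DNA-PK, which act on CHEK1 and CHEK2 to hold the cell cycle. Much of this response runs through protein modification and needs no change in RNA. Breaks are then repaired by recombination with a sister chromatid, in which the BRCA proteins act, or by joining the ends, in which the Ku proteins act. Wnt3a is a secreted ligand that acts through beta-catenin and TCF/LEF factors.

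The targeted gene was read first. The brighter KMT5A probe set had log2 intensities of 8.97 and 9.65 on the SET8 shRNA arrays, 11.20 and 10.53 on the control shRNA arrays with Wnt3a medium, and 11.03 and 10.75 with control medium. Both SET8 shRNA arrays lay below the other 4, a 2.94-fold lower level (log2 fold change -1.56, SE 0.34) whose limma adjusted p was 0.236. A second KMT5A probe set was 2.16-fold lower (log2 fold change -1.11, SE 0.28, limma adjusted p = 0.326). Array medians lay between 7.63 and 7.79 on the log2 scale, against 4.66 to 4.84 for random control probes. Replicates correlated across probe sets with r of 0.985 with SET8 shRNA, 0.976 with Wnt3a medium and 0.972 with control medium. More than 2-fold apart between replicates were 1.86% of tested probe sets with SET8 shRNA, 8.98% with Wnt3a medium and 6.87% with control medium. All 9 genes of an embryonic kidney line list were measured, KRT8 and VIM among them. Their summed intensity was 68539 to 69104 with SET8 shRNA, 69270 to 69682 with Wnt3a medium and 70655 to 71974 with control medium. Of 10 blood cell genes 4 were tested, with summed intensities of the 10 genes of 1533 to 1578, 2726 to 3018 and 2425 to 2922 in the same order of groups. Of 10 fibroblast genes 3 were tested, with sums of the 10 of 4684 to 5067, 6302 to 7175 and 6137 to 6398. Each sum was carried by a few bright genes, COL1A1 in the fibroblast list and CD68, HBA1 and HBA2 in the blood list, and these were lower with SET8 shRNA. Several other fibroblast genes were lower in both groups with Wnt3a medium. DCN read 6.11 and 5.38 with SET8 shRNA, 5.17 and 5.64 with control shRNA and Wnt3a medium, and 7.24 and 7.75 in control medium. CD14 ran the other way from the blood sum against control medium, at 8.12 and 7.80 with SET8 shRNA against 7.45 and 6.95. The part of these genes in the values below was not tested. Bulk RNA cannot tell fewer cells of a type apart from less RNA per cell.

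A probe set was tested where it was above the median of its array on at least 2 of the 6 arrays. This held for 63 of the 84 probe sets of the repair list and for 33 of its genes, of which 32 were above the median on all 6 arrays and ATM on 5. The filter therefore did not select these genes through 1 group. A gene was read from its brightest tested probe set, by the mean over all 6 arrays. Intensities of different repair genes were not set against each other. Fold changes are differences between group means of log2 intensity, each with a limma standard error from a model of all 6 arrays, and adjusted p-values follow Benjamini and Hochberg over 23808 probe sets.

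SET8 shRNA against control shRNA, both in Wnt3a medium, asks whether repair gene RNA differed after SET8 knockdown. No repair gene passed an adjusted p of 0.05 in limma, 0 of 33, beside a background of 0% among the 13070 genes tested. At an unadjusted p of 0.05 the count was also 0 of 33, against 7.41% of all genes. The median log2 fold change of the 33 genes was 0.03, against 0.00 over all genes, and their values ran between -0.48 and 0.69. No gene was 2-fold higher or lower, against 2.62% of all genes past that size, and 2 genes (6.06%) lay more than 0.5 from 0, against 15.9% of all genes. For 28 of the 33 genes the 95% interval lay wholly within a 2-fold change in either direction, while those of CLSPN, MDC1, TIPIN, ATM and PRKDC reached beyond it. The intervals had a median reach of 0.62 on either side of the value, and with 2 arrays a group larger differences than that also missed the adjusted threshold, as for KMT5A. The interval plot gives each gene, and the histogram sets the list against all genes.

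**Figure D1:**
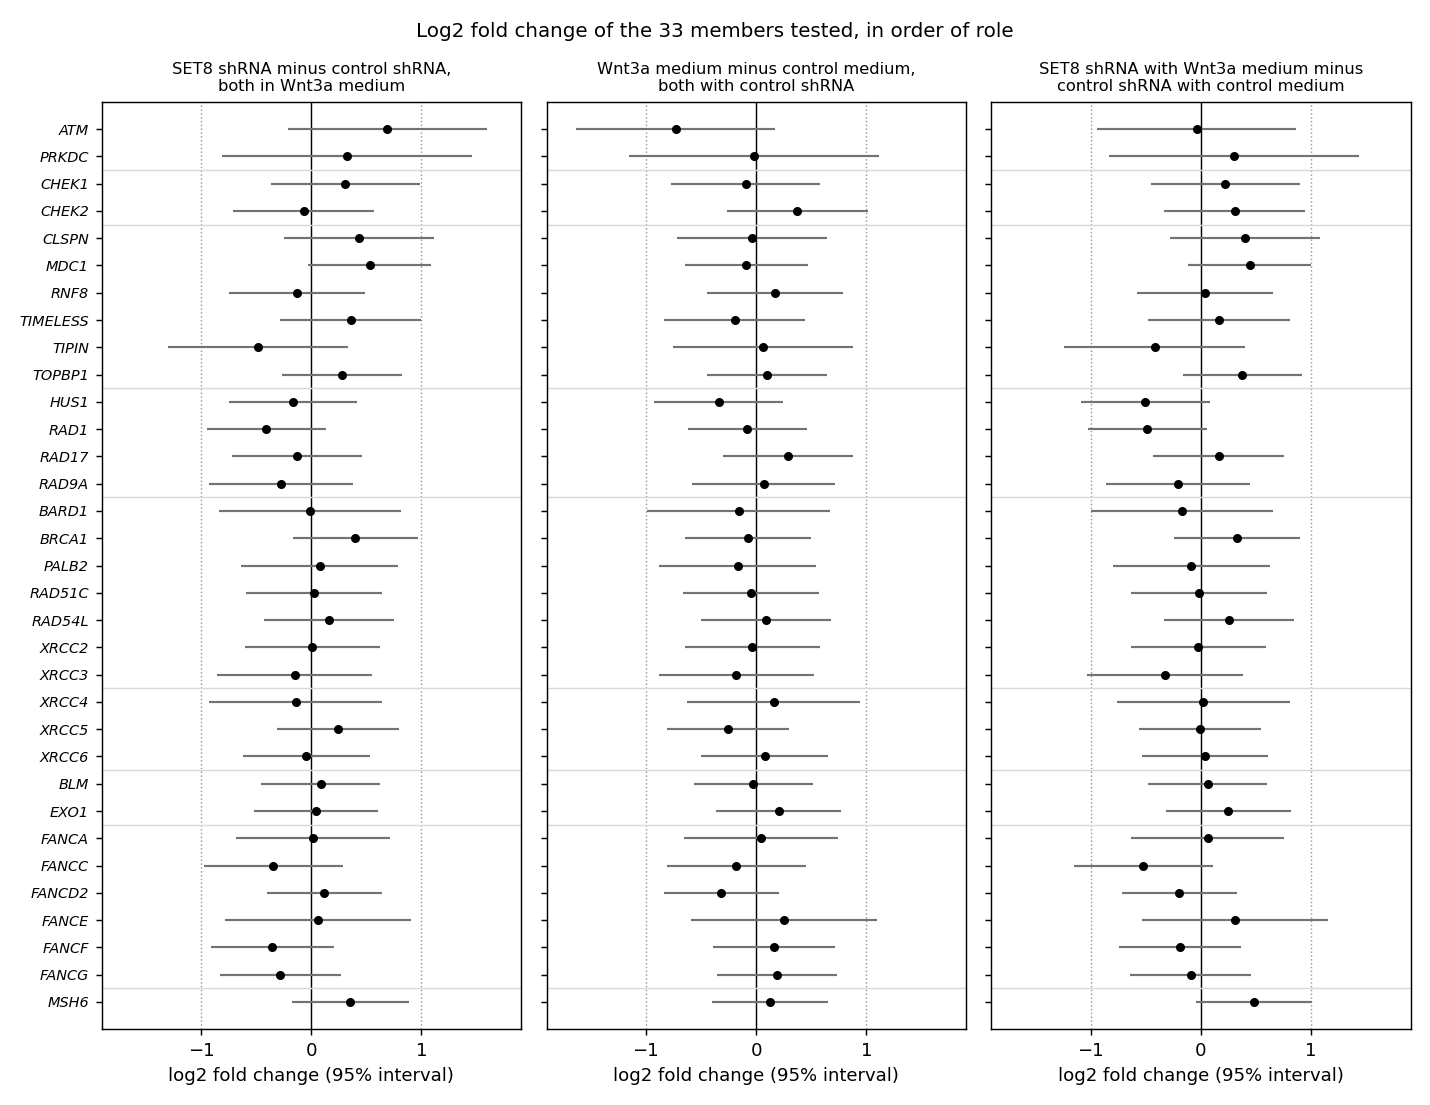
Log2 fold change (x axis) of each of the 33 repair genes tested (y axis, ordered by role) in the 3 comparisons, with 95% limma intervals from 2 arrays a group. Every interval spans 0, and ATM, at 0.69 and -0.73 in its 1 tested probe set, lies farthest out in the SET8 and Wnt3a panels.

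**Figure D2:**
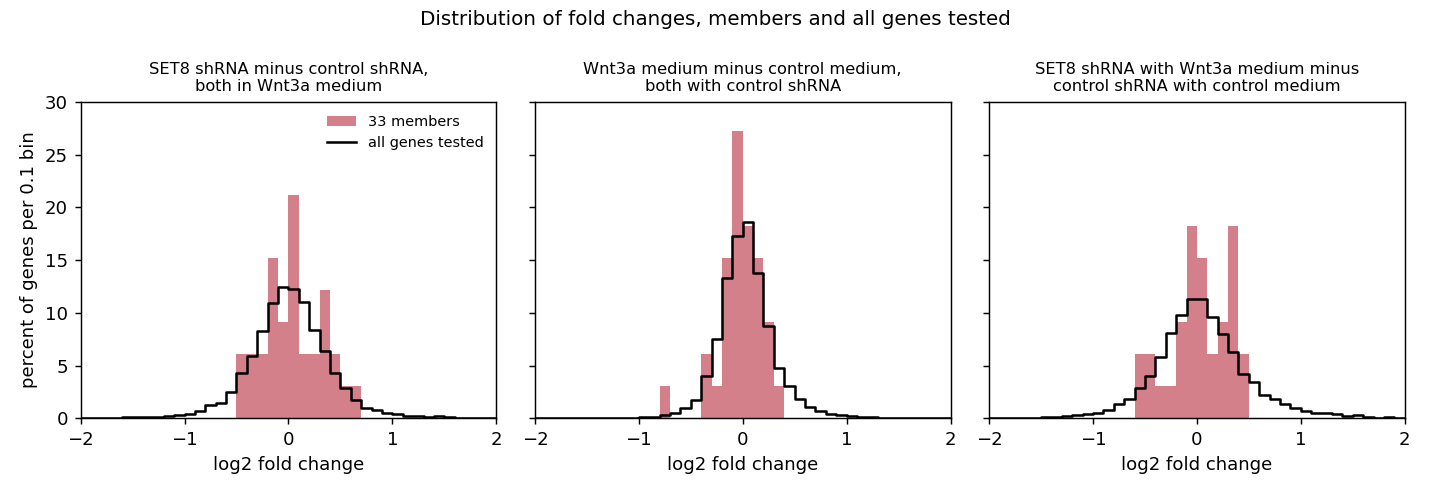
Percent of genes (y axis) in each 0.1-wide bin of log2 fold change (x axis), with the 33 repair genes as bars and all 13070 genes tested as a line, in the 3 comparisons. The repair genes centre near 0, at medians of 0.03, -0.03 and 0.04 from the left panel to the right, and none reaches 1 in either direction.

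The groups did not overlap for 12 of the 33 genes (36.4%), 6 with both SET8 shRNA arrays higher and 6 with both lower, against 34.4% of all genes (17.2% higher and 17.3% lower). No gene was separated by 1.5-fold or more, where each array of 1 group lies that far from each array of the other, against 3.27% of all genes. The share of repair genes without overlap was thus near the background.

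Among the kinases that sense damage, ATM, the kinase activated by double-strand breaks, had the highest fold change of the list and overlapping groups. Its probe set, at chr11:107663534-107671929 on hg18, gave 8.05 and 8.60 with SET8 shRNA, 7.21 and 8.05 with control shRNA in Wnt3a medium, and 8.02 to 8.70 in control medium. The fold change was 0.69 (SE 0.38, 95% interval -0.21 to 1.59, limma adjusted p = 0.822). The first Wnt3a array was the lowest of the 6, and the second equalled the lower SET8 shRNA array to 2 decimals. Of 4 ATM probe sets this was the 1 tested, and the others were below the array median on all 6 arrays. Those untested probe sets had SET8 differences of -0.46, 0.17 and 0.03, the first without overlap. PRKDC, the catalytic subunit of DNA-PK, gave 10.80 and 11.65 with SET8 shRNA against 11.49 and 10.32 with control shRNA, a fold change of 0.32 (SE 0.48) with the widest error of the list. The effector kinases spread in the same way. CHEK1, which acts downstream of ATR, read 10.31 and 10.71 with SET8 shRNA and 10.40 and 10.00 with control shRNA, a fold change of 0.31 (SE 0.29). CHEK2, which acts downstream of ATM, read 11.36 and 10.82 against 10.99 and 11.33, a fold change of -0.07 (SE 0.27). The groups overlapped for these brightest probe sets, but the other 3 tested CHEK2 probe sets stood at 0.28, 0.24 and 0.27, each with both SET8 shRNA arrays above both control shRNA arrays.

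The mediators and fork protection proteins held both the smallest p among higher genes and the lowest value of the list, with a median fold change of 0.32 over 6 genes. MDC1, a scaffold that binds phosphorylated histone H2AX at breaks, lies at chr6:30775563-30793010 on hg18. It read 14.35 and 14.51 with SET8 shRNA, against 13.89 and 13.90 with control shRNA in Wnt3a medium, with 14.16 and 13.81 in control medium. Both SET8 shRNA arrays were the highest of the 6, the fold change was 0.53 (SE 0.24, 95% interval -0.03 to 1.09), and the limma adjusted p was 0.723. CLSPN, or claspin, the adaptor that brings CHEK1 to ATR, read 10.03 and 10.29 against 9.74 and 9.72, a fold change of 0.44 (SE 0.29, limma adjusted p = 0.885). Its control medium arrays were far apart, at 10.11 and 9.42, the higher between the SET8 shRNA arrays and the lower the lowest of the 6. TOPBP1, an activator of ATR, read 9.20 and 9.26 against 9.09 and 8.81, a fold change of 0.28 (SE 0.23). TIMELESS and TIPIN, which form a complex at the replication fork, had values of opposite sign. TIMELESS read 11.82 and 12.22 with SET8 shRNA against 11.44 and 11.88 with control shRNA, a fold change of 0.36 (SE 0.27) with overlap. TIPIN read 9.0 and 9.14 against 9.31 and 9.79, a fold change of -0.48 (SE 0.35, limma adjusted p = 0.904), and the control medium arrays, at 9.03 and 9.95, were farther apart than the group means, the lower of them between the SET8 shRNA arrays. RNF8, a ubiquitin ligase recruited by MDC1, had a fold change of -0.13 (SE 0.26).

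The 9-1-1 clamp, made of RAD9A, RAD1 and HUS1, is set on DNA beside damage by a loader that contains RAD17. All 4 genes had fold changes below 0, from RAD1 at -0.41 to RAD17 at -0.13, with a median of -0.22, and none passed the test. For RAD17 a second probe set, and for RAD1 the dimmest of 4, had the opposite sign, as given below. RAD1, at chr5:34944416-34951360 on hg18, read 9.33 and 9.62 with SET8 shRNA, against 9.87 and 9.90 with control shRNA in Wnt3a medium, with 9.92 and 10.01 in control medium. Both SET8 shRNA arrays were the lowest of the 6, with a limma adjusted p of 0.827 (SE 0.23, 95% interval -0.95 to 0.13). RAD9A read 12.05 and 12.01 against 12.54 and 12.06, a fold change of -0.27 (SE 0.28). HUS1 read 8.27 and 7.93 against 8.41 and 8.12, a fold change of -0.16 (SE 0.25). RAD1 and RAD9A had no overlap, HUS1 and RAD17 did.

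Of 10 recombination genes 7 were tested, and their fold changes lay between -0.15 and 0.40. BRCA1, the ubiquitin ligase that promotes recombination, was the highest, at 10.83 and 10.91 with SET8 shRNA against 10.26 and 10.68 with control shRNA in Wnt3a medium, with 10.58 and 10.51 in control medium. Its fold change was 0.40 (SE 0.24, limma adjusted p = 0.856), with both SET8 shRNA arrays above the other 4. A second BRCA1 probe set gave 0.09, at 10.61 and 10.50 with SET8 shRNA against 10.39 and 10.55 with control shRNA, with overlap. BARD1, the partner of BRCA1, stood at -0.01 (SE 0.35), and PALB2, which links BRCA1 to BRCA2, at 0.08 (SE 0.30). RAD51C and XRCC2, which act in recombination, stood at 0.03 and 0.01 (SE 0.26 each), XRCC3 at -0.15 (SE 0.30), and the motor protein gene RAD54L at 0.16 (SE 0.25). The end-joining genes XRCC5, XRCC6 and XRCC4 stood at 0.24, -0.04 and -0.14 (SE 0.24, 0.25 and 0.33). The other tested XRCC5 probe sets gave 0.23 and 0.48, and all 3 had both SET8 shRNA arrays above both control shRNA arrays. The 5 XRCC6 probe sets ran between -0.28 and 0.30, and the 3 XRCC4 probe sets between -0.30 and 0.08. XRCC5 and XRCC6 encode the Ku heterodimer, which binds broken ends, and XRCC4 is the cofactor of the ligase LIG4.

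The Fanconi anaemia proteins act on crosslinks between DNA strands. FANCF read 10.16 and 9.92 with SET8 shRNA against 10.50 and 10.29 with control shRNA, a fold change of -0.35 (SE 0.24, limma adjusted p = 0.886). FANCC read 9.62 and 9.54 against 10.16 and 9.69, a fold change of -0.34 (SE 0.27, limma adjusted p = 0.921). FANCG read 13.72 and 13.64 against 13.80 and 14.13, a fold change of -0.28 (SE 0.23, limma adjusted p = 0.928). In these 3 genes both SET8 shRNA arrays were below both control shRNA arrays, by small gaps for FANCC and FANCG. FANCA and FANCE, which belong to the same core complex as these 3, stood at 0.02 and 0.06 (SE 0.30 and 0.36), with overlap. FANCD2, the protein the core complex modifies, stood at 0.12 (SE 0.22), also with overlap. MSH6, which recognises mismatches, read 12.86 and 12.63 with SET8 shRNA against 12.37 and 12.41 with control shRNA, a fold change of 0.36 (SE 0.23, limma adjusted p = 0.868). The helicase gene BLM and the nuclease gene EXO1 stood at 0.09 and 0.04 (SE 0.23 and 0.24).

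**Figure D3:**
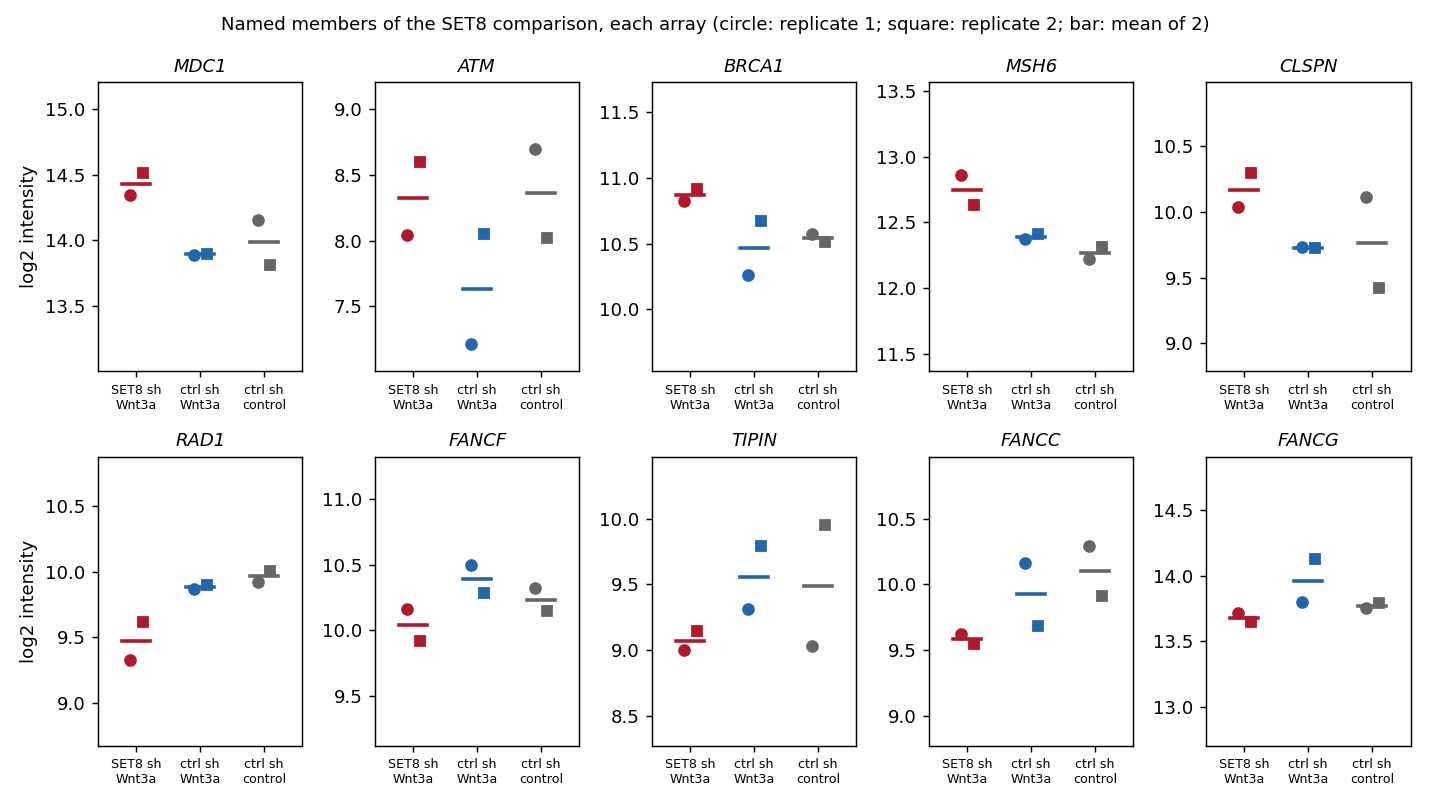
Log2 intensity (y axis) of the 10 repair genes named in the SET8 comparison, 1 panel a gene, with a circle for replicate 1, a square for replicate 2 and a bar for the mean of the 2 arrays in each group (x axis). MDC1 (14.35 and 14.51 with SET8 shRNA) and RAD1 (9.33 and 9.62) show both SET8 shRNA arrays outside the other 4, and ATM shows arrays that overlap.

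Promoter sequence was read for the 250 bases before each start site, from RefSeq on GRCh38.p14, in which 38 of the 43 genes, ATRIP included, had 59 promoters. Motifs of 4 kinds were searched on both strands. The CCAAT box (CCAAT) was in 29 of the 59 promoters (49.2%), against 32.0% of all 35116 promoters. The E2F motif (TTTGGCGC, TTTCGCGC, TTTCCCGC or TTTGGCGG) was in 3.39%, against 2.83% of all. The cell cycle homology region, or CHR (TTTGAA or TTCGAA), was in 6.78% against 14.3%, and the TCF/LEF motif (ATCAAAG or TTCAAAG) was in 1.69%, the TIMELESS promoter alone, against 5.94%. The promoters below belong to the 2 higher and 2 lower genes with the largest SET8 fold changes among tested genes with 1 listed start and a level above the median on all 6 arrays, and let a reader compare the sequence upstream of genes that lay on opposite sides of 0. All 4 genes are on the minus strand, and the sequences run 5′ to 3′ toward the start. Coordinates are chr6:30717282-30717531 for MDC1, chr1:35769979-35770228 for CLSPN, chr5:34915505-34915754 for RAD1 and chr11:22625824-22626073 for FANCF. Capitals mark a motif or its reverse complement.
MDC1: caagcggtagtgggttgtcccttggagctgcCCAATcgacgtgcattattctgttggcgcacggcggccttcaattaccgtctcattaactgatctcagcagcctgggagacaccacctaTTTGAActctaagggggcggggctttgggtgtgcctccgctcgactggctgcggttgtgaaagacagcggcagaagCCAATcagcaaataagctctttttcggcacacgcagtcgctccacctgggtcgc
CLSPN: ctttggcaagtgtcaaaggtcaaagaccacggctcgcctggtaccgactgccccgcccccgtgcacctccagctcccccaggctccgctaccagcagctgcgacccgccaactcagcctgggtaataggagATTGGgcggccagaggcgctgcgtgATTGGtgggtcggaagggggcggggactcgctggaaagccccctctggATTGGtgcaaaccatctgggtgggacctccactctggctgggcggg
RAD1: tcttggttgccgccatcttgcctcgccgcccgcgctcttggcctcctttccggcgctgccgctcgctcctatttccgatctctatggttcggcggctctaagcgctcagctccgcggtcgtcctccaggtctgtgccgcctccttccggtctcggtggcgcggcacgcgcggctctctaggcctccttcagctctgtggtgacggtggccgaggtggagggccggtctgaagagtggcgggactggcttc
FANCF: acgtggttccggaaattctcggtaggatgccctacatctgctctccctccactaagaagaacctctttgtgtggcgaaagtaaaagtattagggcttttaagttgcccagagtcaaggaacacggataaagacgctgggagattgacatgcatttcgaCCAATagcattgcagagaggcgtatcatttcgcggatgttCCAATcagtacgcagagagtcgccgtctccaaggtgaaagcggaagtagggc
MDC1 holds CCAAT 219 and 54 bases before the start and a CHR match 130 bases before it. CLSPN holds CCAAT on the other strand at 119, 94 and 46 bases, and FANCF holds CCAAT at 92 and 52 bases. RAD1 holds none of these letters in its window. CCAAT thus occurred in genes above and below 0, and a match is a description of letters only.

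Several probe sets were tested for 20 of the 33 genes, and they did not always give the same sign. In the SET8 comparison 8 of the 20 genes had probe sets on both sides of 0, and the spread between probe sets of a gene had a median of 0.28 and a maximum of 0.97. The maximum was RAD17, whose dimmer probe set read 9.26 and 8.82 with SET8 shRNA, against 8.0 and 8.40 with control shRNA in Wnt3a medium and 8.44 and 8.31 in control medium. That gave a fold change of 0.84 (SE 0.27, unadjusted p = 0.016, limma adjusted p = 0.484), where the brightest RAD17 probe set gave -0.13. It was the 1 probe set of 63 with an unadjusted limma p under 0.05 in this comparison, against 7.16% of all probe sets. None of the 63 was separated by 1.5-fold, against 3.16% of all. For CLSPN a second probe set gave 0.81 (SE 0.35, limma adjusted p = 0.699) and another 0.36, so all 3 lay above 0. The 4 RAD1 probe sets ran between -0.41 and 0.33, with 3 below 0. The values of FANCF (-0.35 and -0.50) and FANCG (-0.28 and -0.35) kept their sign, whereas those of MSH6 (0.36 and -0.22) and XRCC3 (-0.15 and 0.33) did not.

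**Figure D4:**
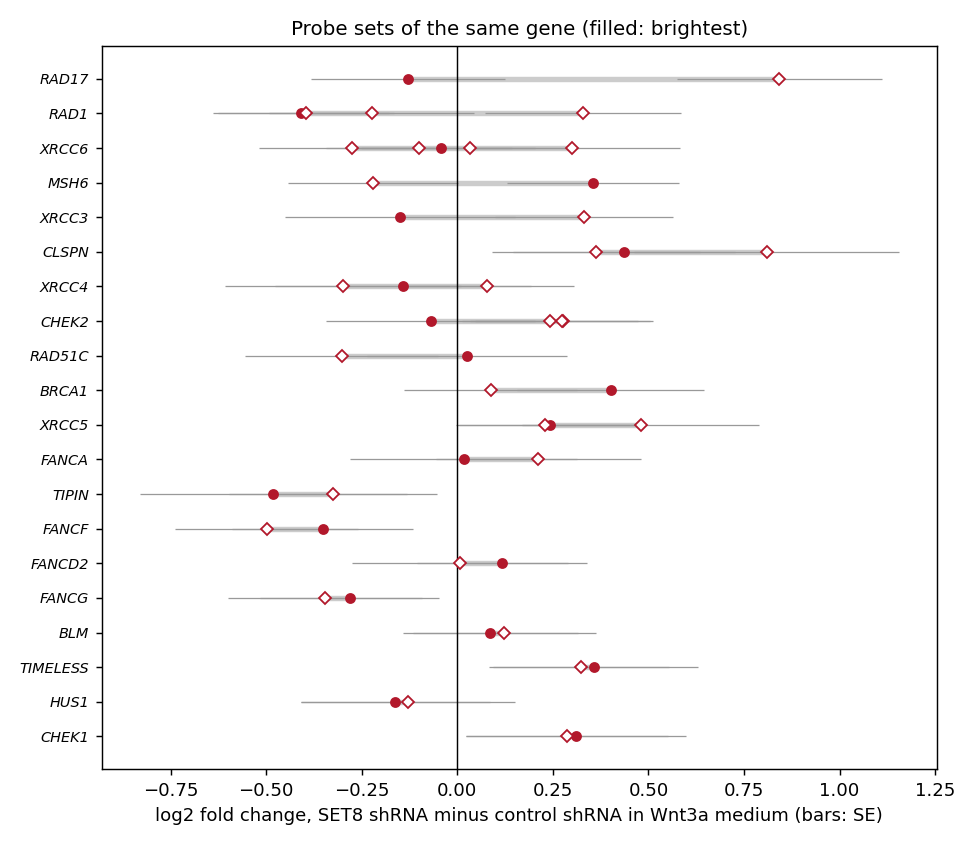
Log2 fold change of SET8 shRNA minus control shRNA in Wnt3a medium (x axis, bars are SE) for every tested probe set of the genes with several (y axis), with the brightest filled. RAD17 has the widest spread, at -0.13 and 0.84, and probe sets of CLSPN lie on 1 side of 0.

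Wnt3a medium against control medium, both with control shRNA, asks whether 7 hours of Wnt3a altered repair gene RNA. No repair gene passed in limma, 0 of 33 at an adjusted p of 0.05 beside 0% of all genes, and 0 of 33 at an unadjusted p of 0.05 beside 2.31%. The median log2 fold change was -0.03, against 0.02 over all genes, with 15 genes above 0 and 18 below. The groups did not overlap for 8 genes (24.2%, 4 higher and 4 lower), against 21.6% of all genes (12.5% higher and 9.1% lower), and none was separated by 1.5-fold, against 0.773%. For 29 of the 33 genes the 95% interval lay within 2-fold, the others being FANCE, CHEK2, ATM and PRKDC. The limma adjusted p-values of the 33 repair genes all rounded to 1.0 in this comparison. The model had no replicate term, although replicate differences of the 2 groups correlated at 0.75. With a replicate term in the 4 control shRNA arrays only, 14 probe sets and 0 repair genes were called. The smallest limma adjusted p of a repair gene was then 0.808, for ATM. ATM had the lowest value, at -0.73 (SE 0.38), with 7.21 and 8.05 in Wnt3a medium against 8.70 and 8.02 in control medium. The first Wnt3a array was the low one, and the other 3 arrays lay between 8.02 and 8.70. The untested, dimmer ATM probe sets differed by -0.0027, 0.31 and -0.26. CHEK2 was the highest by brightest probe set, at 10.99 and 11.33 in Wnt3a medium against 10.77 and 10.80 in control medium. Its fold change was 0.37 (SE 0.27) without overlap. Dimmer XRCC4 probe sets gave 0.62 (SE 0.31) and 0.30 (SE 0.23) without overlap, while the brightest XRCC4 probe set gave 0.16 with overlap. RAD17 stood at 0.29 (SE 0.25), with 8.92 and 8.90 against 8.81 and 8.43. FANCD2 read 11.40 and 11.28 against 11.70 and 11.60, a fold change of -0.32 (SE 0.22), and HUS1 8.41 and 8.12 against 8.67 and 8.54, a fold change of -0.34 (SE 0.25). In these probe sets both Wnt3a arrays lay below both control medium arrays. A second HUS1 probe set gave 0.13, with overlap, and the dimmer RAD17 probe set gave -0.18. The other tested CHEK2 probe sets gave smaller values of 0.14, 0.17 and 0.0017, and a second FANCD2 probe set gave -0.04, with overlap. Of the 20 genes with several probe sets 8 had values on both sides of 0. Of the 63 probe sets 1 had an unadjusted p under 0.05, against 2.14% of all, and 0 were separated by 1.5-fold, against 0.643%. It was a dimmer BLM probe set, with a fold change of 0.59 (SE 0.24, limma unadjusted p = 0.042 and adjusted p = 1.0). EXO1 and FANCG stood at 0.20 and 0.19, XRCC5 at -0.25. FANCE, at 0.25 (SE 0.36), and TIMELESS, at -0.19 (SE 0.27), turned sign without the first Wnt3a array, to -0.26 and 0.03.

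Cells given both SET8 shRNA and Wnt3a medium, set against cells given neither, measure both treatments at once, and this comparison shares its arrays with the comparisons above. Again 0 of 33 repair genes passed in limma at an adjusted p of 0.05, beside 0.0536% of all genes (0.0504% of probe sets), and 0 of 33 had an unadjusted p under 0.05, beside 10.9%. The median was 0.04, against 0.02 over all genes, and the values ran between -0.52 and 0.48. No overlap was seen for 13 genes (39.4%, 8 higher and 5 lower), against 40.1% of all genes (21.8% higher and 18.4% lower), and no gene was separated by 1.5-fold, against 5.36%. The 95% interval lay within 2-fold for 23 of the 33 genes. MSH6 was highest, with 12.86 and 12.63 in SET8 shRNA cells with Wnt3a against 12.22 and 12.31 in control cells, a fold change of 0.48 (SE 0.23, limma adjusted p = 0.532), while its second probe set gave 0.05. MDC1, TOPBP1, CLSPN and BRCA1 followed at 0.44, 0.38, 0.40 and 0.33 (limma adjusted p 0.611, 0.675, 0.741 and 0.749). On the lower side FANCC read 9.62 and 9.54 against 10.29 and 9.91, a fold change of -0.52 (limma adjusted p = 0.591). HUS1 read 8.27 and 7.93 against 8.67 and 8.54, a fold change of -0.50 (SE 0.25, limma adjusted p = 0.560), while its second probe set gave 0.0026. RAD1 stood at -0.49 (limma adjusted p = 0.534), TIPIN at -0.42 and XRCC3 at -0.33 (limma adjusted p 0.786 and 0.813). A second XRCC3 probe set gave 0.27, and in all 6 of the 20 genes with several probe sets had values on both sides of 0. Without the second control medium array the TIPIN value was 0.04. Among single probe sets, a dimmer BLM probe set read 8.78 and 8.91 against 8.18 and 8.08. It was the 1 of 63 separated by 1.5-fold, against 5.02% of all probe sets, with a fold change of 0.71 (SE 0.24, limma adjusted p = 0.343), while the brighter BLM probe set gave 0.06. It and the dimmer RAD17 probe set were the 2 of 63 with an unadjusted limma p under 0.05, against 10.6% of all.

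The median absolute difference between replicate arrays was 0.24 for repair genes and 0.27 for all genes with SET8 shRNA, 0.37 and 0.36 with Wnt3a medium, and 0.32 and 0.33 in control medium. Large differences were a smaller share of the repair genes, which was not tested. Between the 2 SET8 shRNA arrays 1 repair gene (3.03%) lay more than 1.5-fold apart, against 14.6% of all genes. The Wnt3a arrays gave 6 genes (18.2%) against 28.1%, and the control medium arrays 6 genes (18.2%) against 24.3%. The SD of fold changes over the list was 0.28 in the SET8 comparison, against 0.40 over all genes, 0.22 against 0.28 for Wnt3a, and 0.28 against 0.47 for both treatments.

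Of the genes with a probe set, 9 were too dim to test, with no probe set above the array median on 2 arrays. These were the 3 genes of the complex that binds broken ends (MRE11, under its older name MRE11A, RAD50 and NBN), ATR, LIG4, BRCA2, RAD52, the recombination gene RAD51B (RAD51L1 on the array), and the helicase gene WRN. Their brightest probe sets had SET8 differences between -0.61 (NBN) and 0.41 (RAD52), which were not tested. MRE11 differed by 0.35 and RAD50 by 0.27, ATR and LIG4 by 0.20 each, and BRCA2 by -0.01. A dimmer ATR probe set, also untested, read 6.41 and 5.54 with SET8 shRNA against 5.61 and 4.76 with control shRNA in Wnt3a medium. Its difference was 0.79, with overlap. Against control medium cells without SET8 shRNA, MRE11 read 7.68 and 7.76 with both treatments against 7.17 and 6.22, a difference of 1.03 (2.04-fold). NBN read 4.86 and 4.92 against 6.51 and 5.32, a difference of -1.02 (2.03-fold lower) close to the level of random control probes. The groups did not overlap in either of these probe sets. This held for 40.1% of all genes tested in this comparison, but those passed the filter that MRE11 and NBN failed. The share among untested probe sets is not given here, so the 40.1% is not a like background. A second MRE11 probe set, also untested, read 6.15 and 6.74 against 6.25 and 6.13, a difference of 0.26 with overlap.

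Genes of neighbouring pathways, from lists made with earlier results of these data known, also gave no call in limma in any of the 3 comparisons. Of 51 further damage response genes 39 were tested, with medians of -0.05 for SET8, 0.04 for Wnt3a and -0.01 for both treatments. The helicase gene RECQL read 8.74 and 9.07 with SET8 shRNA against 7.45 and 7.76 with control shRNA in Wnt3a medium, with 8.48 and 8.22 in control medium, a fold change of 1.30 (SE 0.26, limma adjusted p = 0.201). RAD51D, a further recombination gene, stood at -0.91 (SE 0.30, limma adjusted p = 0.499). Of 23 p53 target genes 22 were tested, and 17 lay below 0 in the SET8 comparison, against 6447 of all 13070 genes, which was not tested. Their medians were -0.26, -0.06 and -0.33 for SET8, Wnt3a and both treatments. TP53I3 stood lowest in the SET8 comparison, at -0.95 (limma adjusted p = 0.360), and the death receptor gene FAS at 0.86 (limma adjusted p = 0.576). Replication and S phase genes, 34 of 36 tested, had medians of 0.08, -0.04 and 0.04, and G2/M genes, 23 of 24 tested, had 0.14, 0.03 and 0.16, in the same order. Genes of H4K20 methylation, 9 of 10 tested, had a SET8 median of -0.07, with KMT5A the lowest and 3 genes above 0. KMT5B stood at -0.99 (SE 0.34, limma adjusted p = 0.553). It read 8.77 and 8.38 with SET8 shRNA against 9.19 and 9.94 with control shRNA in Wnt3a medium, with 9.68 and 10.20 in control medium.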

How the data were processed

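The authors deposited linear intensity values, 1 for each probe set on an array, and their processing notes name RMA, the robust multi-array average, per the labels. Its version and settings are not given in the sources used here. Probe set positions are on hg18 per the file headers. The deposited series table held the same values as the array files. Intensities were put on the log2 scale with no further normalization. Probe sets above their array's median on at least 2 of 6 arrays were tested (23808, for 13070 genes) with limma 3.58.1 in R 4.3.3, in 1 model of 3 groups of 2 arrays with 3 residual degrees of freedom. The fit was tested on simulated data. Groups and replicate numbers came from the labels. An exact 2 against 2 test cannot go below p = 0.333, and the number of arrays limits the precision. In each comparison the text names any gene past the threshold or separated by 1.5-fold, and the 5 higher and 5 lower genes with the smallest unadjusted p. Other genes of the list were added to complete each role, after their values were seen. For the other lists the rule was the 2 genes with the smallest p, given here for the lists nearest to repair. The members and lists were chosen with earlier results of these data known. Symbols were updated through Entrez numbers for 38916 probe sets (86.4%). Alternatives covered the filter, scaling, length, arrays left out, the variance model and the replicate block.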

Additional observations from a re-analysis of the deposited data

How the results depend on the processing

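No repair gene was called in any of the 3 comparisons under any of the 17 alternatives, whatever the count over all probe sets, which ranged between 0 and 14 for Wnt3a and 0 and 389 for SET8, against 0 each as reported, and between 0 and 905 for both treatments against 12. The median SET8 fold change, 0.03 as reported, was 0.0526 with no filter, 0.0616 with a replicate term in the 4 control shRNA arrays only and 0.0673 with the median over a gene's probe sets, and 0.0257 to 0.0570 without 1 array. The median for both treatments was -0.0529 after median centring, against 0.04 as reported, and -0.0279 to 0.0508 without 1 array. At a looser fold 1 gene was separated in the SET8 comparison. Without 1 array the number separated by 1.5-fold was 0 to 1 for SET8 (0 without SET8 shRNA replicate 2 and 1 without any other array of that comparison). It was 0 to 1 for Wnt3a (1 without either group's replicate 2) and 1 to 2 for both treatments (2 without control medium replicate 1). Separation is easier to meet with a lone array in a group. The share over all genes is not given for these counts or for the looser fold, so they are not read as results about the list. Of the single-gene values 3 turned sign, all without 1 array, and the cause was not tested: without 1 Wnt3a array FANCE was -0.261 to 0.761 and TIMELESS -0.412 to 0.0256 for Wnt3a, and without 1 control medium array TIPIN was -0.880 to 0.0404 for both treatments. With the replicate number as a block 0 repair genes and 0 probe sets were called in each comparison. Replicate differences correlated at 0.75 between the Wnt3a and control medium groups and at -0.29 between SET8 shRNA and each of them, so same-numbered Wnt3a and control medium arrays deviated together while the SET8 shRNA arrays did not follow, and no label says what a number shares. With the SET8 numbers crossed, an alternative chosen after seeing the data, 3, 182 and 792 probe sets were called for Wnt3a, SET8 and both treatments, and 0 repair genes. A looser adjusted p of 0.1, also added later, called 0 repair genes. Background correction and a slide block were not run, because the files hold summarised values without a slide column. With 2 arrays a group, intervals spanned about 0.62 on either side of a value, and dim genes near the array median carry the least signal over background.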
